A study of Rattus norvegicus with 8 samples.

Results

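A set of 8 genes of arterial calcification was described in the thoracic aorta of GK rats and control rats: Mgp, Dmp1, Spp1, Alpl, Enpp1, Runx2, Sox9 and Msx2. They were taken by name from a deposited table of 19238 genes, where all 8 were found. The 2 long non-coding RNA (lncRNA) transcripts within 30 kb of Dmp1, of 24300 lncRNA transcripts in all, were added to them. The set was chosen by name with the log2 fold changes of GK over control known, and Dmp1 was selected on its lower level in GK. The values of the members are therefore given as a description and carry no test.

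Total RNA was sequenced from 4 GK rats, labelled as the diabetic macroangiopathy group, and from 4 Wistar rats, labelled control. All 8 animals were 7 to 8 weeks old, and no treatment or transgene is named for either group. GK (Goto-Kakizaki) is an inbred, non-obese strain with inherited diabetes that was bred from Wistar stock, so strain and diabetes cannot be told apart here. Each library is called by its group and the number in its title, 7 to 10. The labels do not say more on how the animals were housed or dissected, and any p-value sets the group difference against the spread between these libraries.

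The wall of an artery is bathed in calcium and phosphate near saturation, and smooth muscle cells keep mineral from forming in it. Matrix Gla protein, encoded by Mgp, blocks calcification after vitamin K-dependent carboxylation. Pyrophosphate, made outside the cell by the ectoenzyme Enpp1, stops crystal growth, and tissue-nonspecific alkaline phosphatase, encoded by Alpl, degrades it. Osteopontin (Spp1) and dentin matrix protein 1 (Dmp1) are acidic phosphoproteins of one family, the small integrin-binding glycoproteins, that bind calcium, the latter best known from osteocytes and teeth. Runx2, Sox9 and Msx2 are transcription factors of bone, cartilage and osteogenic commitment that appear in smooth muscle cells turning towards those lineages. Calcium in the vessel wall was not analysed here.

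The gene table held 11760397 to 16266151 counts per library. Of 13673 genes tested with edgeR's quasi-likelihood test, 995 passed a Benjamini-Hochberg adjusted p of 0.05, which is 7.28%, with 542 (3.96%) higher and 453 (3.31%) lower in GK. The 2 groups of 4 did not overlap for 2116 of these genes (15.5%), with GK lower for 1065 (7.79%). Of 11683 lncRNA transcripts tested, 320 (2.74%) passed, 190 (1.63%) higher and 130 (1.11%) lower in GK. Every GK library was above every control for 691 transcripts (5.91%) and under every control for 669 (5.73%). All 10 contractile smooth muscle markers looked for were detected, so the libraries carried the main cell type of the labelled tissue.

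Levels between genes were compared by FPKM, the deposited fragment count scaled to transcript length and library size. In controls the order of the mean was Mgp with 514 ± 145 FPKM (SD, n = 4), Spp1 with 57.6 ± 33.0, Dmp1 with 25.1 ± 6.99, Enpp1 with 9.61 ± 5.58, Alpl with 5.66 ± 2.36, Runx2 with 1.19 ± 0.227, Sox9 with 0.182 ± 0.146 and Msx2 with 0.102 ± 0.0865. The single libraries of Spp1 and Dmp1, of Enpp1 and Alpl, and of Sox9 and Msx2 overlapped, and those neighbours could not be ordered. In GK the order was Mgp with 86.9 ± 42.8 FPKM, Spp1 with 38.4 ± 14.8, Alpl with 10.2 ± 6.33, Enpp1 with 5.50 ± 1.83, Dmp1 with 3.04 ± 0.860, Runx2 with 0.908 ± 0.432, Sox9 with 0.563 ± 0.614 and Msx2 with 0.506 ± 0.575. Dmp1 thus stood between Spp1 and Enpp1 in controls, above Enpp1 in every library, and between Enpp1 and Runx2 in GK. In GK only Spp1 and Alpl, and Dmp1 and Runx2, were neighbours without overlap.

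Of the 8 members, 7 passed the filter on low counts, and Msx2 did not. Of these 7, 5 had a lower and 2 a higher fitted level in GK. Mgp and Dmp1 alone had no overlap between the groups, beside 15.5% of all genes tested, and the same 2 of 7 passed the edgeR test, beside 7.28% of all genes. Nothing is read from these counts, because the comparison itself chose the set. The values below are CPM (counts scaled to library size) within the gene table, with TMM scaling, and fold changes are log2 of GK over control with the standard error of the fit.

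**Figure D1:**
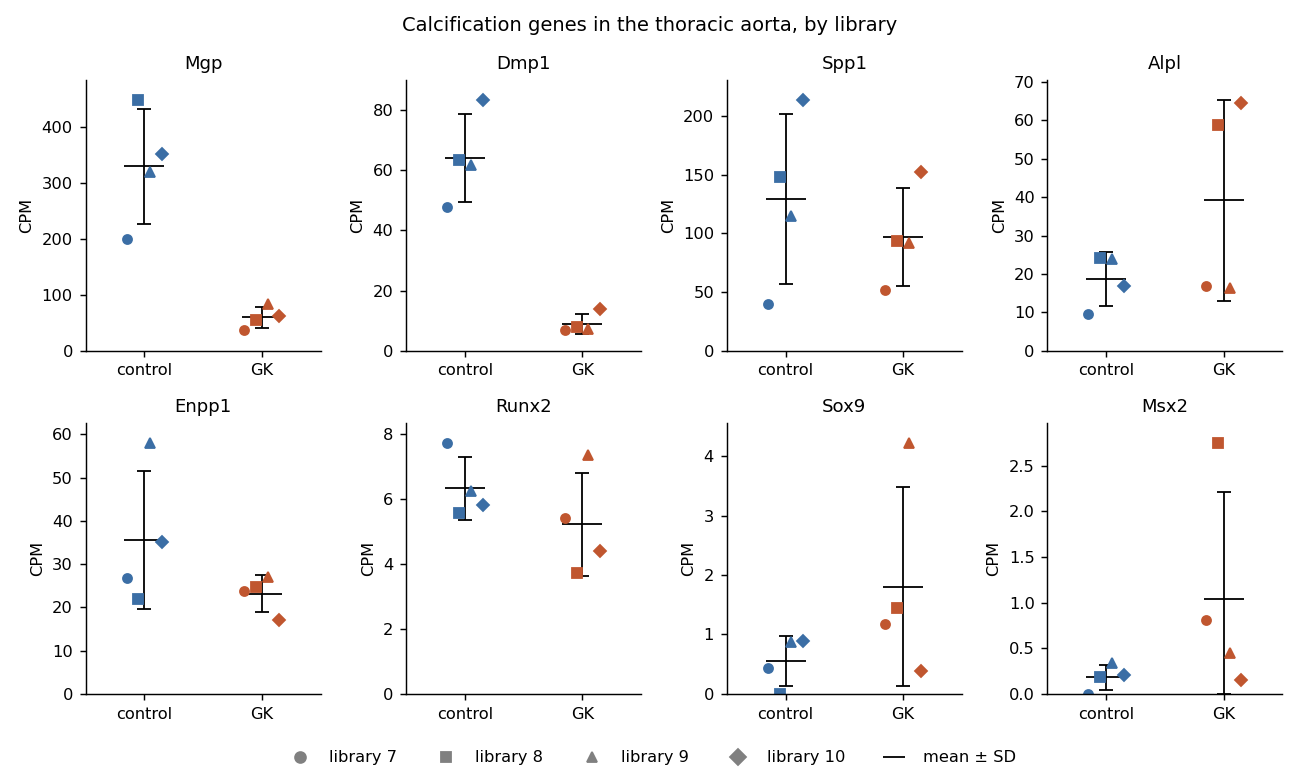
CPM of the 8 genes in each library, with 1 panel per gene and its own linear axis from 0, the symbol marking the library number and the bar showing the mean ± SD of 4 libraries. For Mgp and Dmp1 every GK library lies under every control, whereas the other 6 genes overlap; the lower SD bar of Msx2 in GK is cut at 0.

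Mgp is the most abundant of the 8 genes and the one tied most directly to the smooth muscle cell, which secretes it into the elastic matrix. Mgp (ENSRNOG00000005695, chromosome 4, 170856751 to 170860225 in the files' coordinates) had 199.5, 448, 318 and 352 CPM in controls 7, 8, 9 and 10. In GK 7, 8, 9 and 10 it had 37.0, 55.1, 83.9 and 61.8 CPM. The highest GK library was under the lowest control, and control 7 was the lowest of its group. The means were 329 ± 103 and 59.4 ± 19.4 CPM (SD, n = 4 each), a 5.54-fold lower level in GK and a log2 fold change of -2.47 ± 0.32. The relative spread was alike in both groups, with a coefficient of variation of 31.1% in controls and 32.6% in GK. With a score of 17 adipocyte markers (the mean of their log2 CPM) as a covariate, the log2 fold change was -2.17 ± 0.43. The score was 7.32 to 8.25 in controls and 8.04 to 9.06 in GK, where only GK 9 lay within the control range. Score and group thus largely went together, and no fit with this covariate can separate them well.

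The aorta libraries also differed in the cell types around and in the wall. Contractile smooth muscle markers summed to 5104 to 13795 CPM in controls and to 2626 to 7784 CPM in GK. All 10 of these markers had a log2 fold change below 0, with a median of -1.04, but only Lmod1 passed the test. Mgp was therefore also set against that sum within each library. Control libraries 7 to 10 had ratios of 0.0391, 0.0420, 0.0231 and 0.0262. GK libraries 7 to 10 had ratios of 0.0141, 0.0159, 0.0108 and 0.00943. The GK ratios were all lower than the control ratios, by -1.36 on the log2 scale in the mean, and the FPKM ratio gave the same -1.36. Fibroblast markers had a median log2 fold change of -0.94 and summed to 3306 to 7032 CPM in controls and 1057 to 3539 CPM in GK. Single fibroblast markers ran from -2.59 ± 0.54 for Col1a1 and -2.155 ± 0.45 for Dpt to -0.23 ± 0.45 for Fbln1. Mgp was not set against the fibroblast sum. Its lower ratio to the smooth muscle sum follows from its own fold change and that of those markers. The ratio is a description and carries no test. In bulk tissue, fewer cells of a type and less RNA per cell cannot be told apart.

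Enpp1 and Alpl set the pyrophosphate level from opposite sides. Enpp1 (chromosome 1, 21748261 to 21813371), which makes pyrophosphate, had 26.8, 22.04, 58.0 and 35.2 CPM in controls 7 to 10 and 23.8, 24.8, 26.9 and 17.1 CPM in GK. The groups overlapped, and control 9 was far above every other library. The log2 fold change was -0.61 ± 0.30, with means of 35.5 ± 16.0 and 23.1 ± 4.24 CPM, and it was -0.26 without control 9 and 0.24 with the adipocyte score as a covariate. Alpl (chromosome 5, 156086497 to 156141537), which degrades pyrophosphate, had 9.55, 24.2, 24.0 and 16.9 CPM in controls 7 to 10. In GK it had 16.8, 58.9, 16.2 and 64.7 CPM. GK 8 and GK 10 were above every control, whereas GK 7 and GK 9 were within the control range. The log2 fold change was 1.07 ± 0.52, from 18.7 ± 6.95 to 39.2 ± 26.2 CPM, and it was 0.23 with the adipocyte score as a covariate.

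The ratio of Alpl to Enpp1 within a library was 0.356, 1.10, 0.414 and 0.482 in controls 7 to 10. In GK 7 to 10 it was 0.708, 2.37, 0.603 and 3.78. The GK libraries with the high Alpl, 8 and 10, also had the highest ratios, and control 8 was above GK 7 and GK 9. The mean log2 ratio was 1.41 higher in GK, against a pooled SD of 1.05 between libraries of a group. Brown adipocyte markers summed to 1806, 3185, 581 and 924 CPM in control libraries 7 to 10, and to 6168, 5897, 1706 and 5097 CPM in GK libraries 7 to 10, with 7 of 7 tested above 0 and 2 past the test. Their order was not fully that of Alpl: GK 7 had the highest sum but an Alpl level within the control range. Control 8 had a higher sum than GK 9 and also a higher Alpl level, at 24.2 against 16.2 CPM. General adipocyte markers summed to 6228 to 9126 CPM in controls and 8297 to 16675 CPM in GK, with 3 of 10 past the test and higher. Another 2 were below 0 without passing, Lep at -1.92 ± 0.67 and Cfd at -0.06 ± 0.26. Alpl is also expressed in tissues other than bone, and the part of adipose tissue in its level was not tested beyond the covariate.

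**Figure D2:**
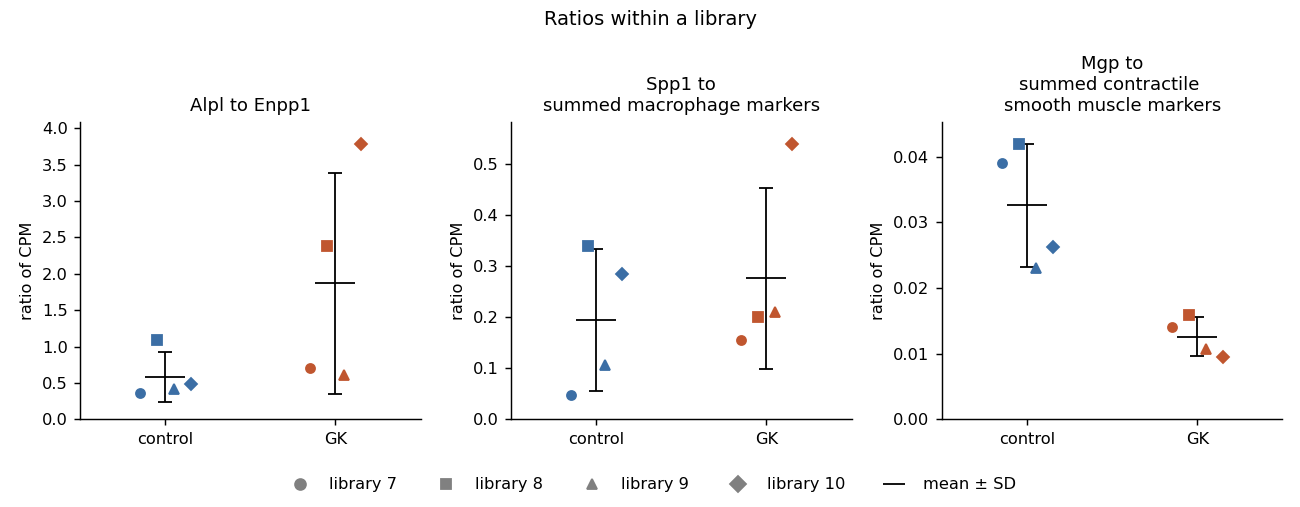
Ratios within each library, Alpl to Enpp1, Spp1 to the summed macrophage markers and Mgp to the summed contractile smooth muscle markers, all of CPM on linear axes from 0, with symbols for library numbers and the mean ± SD of 4 libraries. Only the ratio of Mgp to the smooth muscle markers has no overlap, and GK 8 and GK 10 are the highest for Alpl to Enpp1.

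Spp1 and Dmp1 are neighbours on chromosome 14 with Ibsp between them, in the cluster that encodes these acidic bone and tooth proteins. Spp1 (ENSRNOG00000043451, 6673686 to 6679901) had 39.7, 148, 115 and 214 CPM in control libraries 7 to 10, and 51.4, 93.2, 91.5 and 152 CPM in GK libraries 7 to 10. The ranges overlapped almost fully, with library 7 the lowest and library 10 the highest of each group. The means were 129 ± 72.5 and 97.1 ± 41.5 CPM, with a log2 fold change of -0.41 ± 0.49. Without control 10 it was -0.05.

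Spp1 is abundant in macrophages as well as in smooth muscle cells that have left the contractile state. Macrophage markers summed to 435 to 1077 CPM in controls and 282 to 466 CPM in GK, with 9 of 10 below 0 and Lyz2 alone past the test. Spp1 per summed macrophage marker was 0.0473, 0.340, 0.106 and 0.284 in control libraries 7 to 10, and 0.155, 0.200, 0.211 and 0.540 in GK libraries 7 to 10. The groups overlapped here too, and the mean log2 ratio was 0.71 higher in GK against a pooled SD of 1.09. The sign of the Spp1 difference was thus opposite on these scales, and neither exceeded the spread between libraries.

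Dmp1 (ENSRNOG00000002167, chromosome 14, 6889856 to 6900733) had 47.7, 63.4, 61.7 and 83.5 CPM in controls 7, 8, 9 and 10. In GK 7, 8, 9 and 10 it had 6.80, 7.83, 7.10 and 13.8 CPM. The groups were wide apart, with GK 10 the highest of its group and control 10 the highest of the controls. The means were 64.1 ± 14.7 and 8.87 ± 3.29 CPM (SD, n = 4 each), a 7.22-fold lower level and a log2 fold change of -2.85 ± 0.28. Behind these values stood 3476 counts in the controls and 500 in GK, so counting error was small beside the spread between libraries. With the adipocyte score as a covariate the log2 fold change was -2.85 ± 0.46. The authors' deposited table lists Dmp1 at a log2 fold change of -3.05 and Mgp at -2.56, both called down, and calls none of the other 6 genes.

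Dmp1 is a gene of bone and dentin, and the other genes of its usual cells were scarce here. The 7 other osteoblast and osteocyte markers found summed to 9.26 to 14.5 CPM in controls and 11.95 to 13.9 CPM in GK, which is less than Dmp1 alone in any control. Bglap, the osteocalcin gene, had 3 counts over the 4 controls and 2 over the 4 GK libraries. Sost, which encodes the osteocyte product sclerostin, had 15 and 12 counts, and Ibsp, the bone sialoprotein gene, had 88 and 43. Chondrocyte markers summed to 2.87 to 10.3 CPM in controls and 2.04 to 10.3 CPM in GK, with 8 of 9 under 1 CPM. Col10a1, the collagen of hypertrophic cartilage, had 0 counts in the controls, which allows up to 3 counts over the group by counting error alone.

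The promoters of Dmp1 and Spp1 are shown because these neighbours belong to one family and stood at -2.85 and -0.41 in log2 fold change. The letters are the 250 bases before the start of each gene from RefSeq, build GRCr8, read 5′ to 3′ on the gene's own strand, which is the minus strand for both. Capitals mark matches to any of 4 short motifs, searched on both strands: TGTGGT for RUNX factors, ACAAT for SOX factors, TAATTG for MSX-type homeobox factors and TATAAA for the TATA box. No motif's matches overlap in these windows.
Dmp1, chr14:5840085-5840334: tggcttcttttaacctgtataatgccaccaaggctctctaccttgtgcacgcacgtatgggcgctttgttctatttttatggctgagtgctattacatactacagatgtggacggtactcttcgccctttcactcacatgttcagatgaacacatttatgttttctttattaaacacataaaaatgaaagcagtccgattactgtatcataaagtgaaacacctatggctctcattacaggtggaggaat
Spp1, chr14:5619805-5620054: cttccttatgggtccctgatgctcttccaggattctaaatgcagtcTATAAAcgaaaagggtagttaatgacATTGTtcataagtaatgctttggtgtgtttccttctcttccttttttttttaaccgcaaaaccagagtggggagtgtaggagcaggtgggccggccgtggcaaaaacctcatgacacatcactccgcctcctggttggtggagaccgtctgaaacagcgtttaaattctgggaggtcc
The Dmp1 window, with 40.0% G and C, held none of the 4. The Spp1 window, with 46.8%, held a TATA match 204 to 199 bases before the start and a SOX match on the other strand 178 to 174 bases before it. Of 33469 promoter windows of this length in the table, 14.5% held the RUNX letters, 30% the SOX letters, 7.31% the MSX letters and 12.9% the TATA letters. Such a match is a description of letters, not of a site in use. Of the 8 members, 5 had an entry in that table; Mgp, Enpp1 and Sox9 had none.

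Beside Dmp1 lie 2 lncRNA transcripts, which were likewise scarce in GK. MSTRG.12320.1 (chromosome 14, 6905828 to 6908953, 3015 bases) lies 5095 bases from Dmp1, and MSTRG.12319.8 (6909049 to 6923921, 2197 bases) lies 8316 bases from it. Windows of 10 kb and of 100 kb around Dmp1 held the same 2 transcripts and no other. In RefSeq's GRCr8 the genes follow each other in the order seen in these files and Dmp1 is on the minus strand, so with the same orientation both transcripts would lie beyond the start of Dmp1, on the side of Sparcl1. No source used here states their strand.

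MSTRG.12320.1 had 469, 475, 688 and 866 counts in control libraries 7 to 10, and 71, 100, 81 and 94 counts in GK libraries 7 to 10. MSTRG.12319.8 had 266, 258, 388 and 558 counts in the controls and 51, 55, 45 and 83 in GK. For both, every GK library was far under every control. On the scale of the lncRNA table, whose CPM cannot be set beside those of genes, MSTRG.12320.1 went from 359 ± 73.8 to 51.6 ± 10.9 CPM, with a log2 fold change of -2.80 ± 0.24. MSTRG.12319.8 went from 209 ± 52.1 to 35.5 ± 13.9 CPM, with -2.56 ± 0.32. Both passed the edgeR test on lncRNA, beside 2.74% of all transcripts tested, and the authors' deposited table also calls both down and pairs both with Dmp1 as neighbouring targets. These values were known when the set was drawn up, and no support is taken from them.

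The transcripts kept close to Dmp1 from library to library. MSTRG.12320.1 had 0.723, 0.693, 0.748 and 0.709 counts per Dmp1 count in control libraries 7 to 10, and 0.763, 0.877, 0.730 and 0.516 in GK libraries 7 to 10. The mean ratio was 0.718 ± 0.0231 in controls and 0.722 ± 0.151 in GK, so that the groups differed by less than the spread within GK. GK 10, the library with the most Dmp1 of its group, had the lowest ratio. MSTRG.12319.8 had 0.410, 0.377, 0.422 and 0.457 counts per Dmp1 count in controls and 0.548, 0.482, 0.405 and 0.456 in GK. Its mean ratio was 0.416 ± 0.0330 in controls and 0.473 ± 0.0595 in GK, again with overlap. Reads that extend from one annotated unit into the next cannot be told apart from separate transcripts in these tables.

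**Figure D3:**
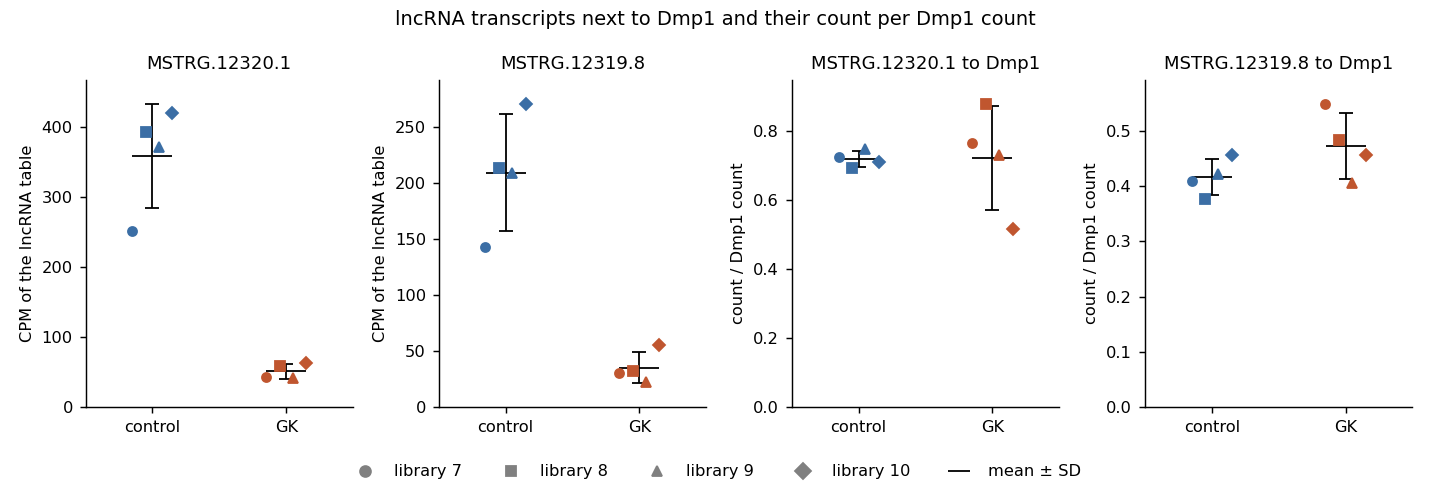
For the 2 lncRNA transcripts next to Dmp1, CPM within the lncRNA table and counts per Dmp1 count in each library, on linear axes from 0, with symbols for library numbers and the mean ± SD of 4 libraries. The levels separate the groups fully, whereas the counts per Dmp1 count overlap, at 0.718 and 0.722 in the mean for MSTRG.12320.1.

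The low level of Dmp1 and its 2 transcripts was set beside that of the genes around them. Ibsp, 75.9 kb away, had a log2 fold change of -1.09 ± 0.58 (edgeR adjusted p = 0.257) on few counts. Sparcl1, a matricellular gene 93.5 kb away on the other side, went from 997 ± 299 to 551 ± 178 CPM, with -0.85 ± 0.31 and an edgeR adjusted p of 0.124. Pkd2, the polycystin-2 gene on the far side of Spp1, had -0.81 ± 0.29 (edgeR adjusted p = 0.114). These 3 were lower in the mean but their groups overlapped. Hsd17b11, a lipid droplet dehydrogenase gene 173 kb from Dmp1, fell from 71.0 ± 4.64 to 49.5 ± 3.33 CPM, with a log2 fold change of -0.52 ± 0.11 (edgeR adjusted p = 0.0291). It was the 1 gene past the test of the 10 tested in the list for this cluster, and it passed in 1 of the 8 fits that left out a library. Abcg2 of that list lies on another chromosome in these files. Hsd17b13, a paralog of Hsd17b11 that lies 213 kb from Dmp1, was at 2.998 ± 0.788 and 1.40 ± 0.335 CPM, with -1.09 ± 0.29. Every GK library was under every control, but the gene missed the test (edgeR adjusted p = 0.0590). The other tested neighbours overlapped between the groups, with Abcg3l1 at -0.58 ± 0.26, LOC679894 at -0.27 ± 0.21, Aff1 at -0.10 ± 0.14, Klhl8 at -0.04 ± 0.25 and Nudt9 at 0.38 ± 0.20. No tested neighbour within 400 kb had a log2 fold change as far below 0 as Dmp1. Since Dmp1 was selected on its lower level, that was likely beforehand, and nothing is read from it.

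**Figure D4:**
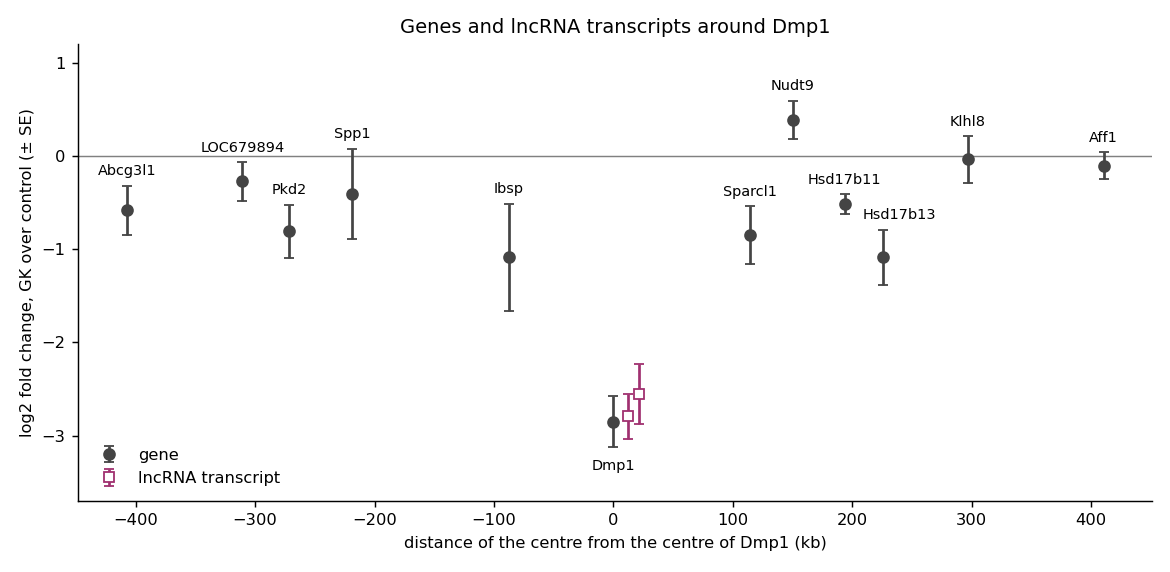
Log2 fold change of GK over control (± SE of the edgeR fit) for tested genes (circles) and lncRNA transcripts (squares) against the distance in kb between their centre and the centre of Dmp1. Dmp1 and its 2 lncRNA transcripts lie between -2.56 and -2.85, and the other genes between -1.09 and 0.38.

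The 3 transcription factors were at low levels. Runx2 (chromosome 9, 18564927 to 18773092), the master regulator of osteoblasts, had 7.72, 5.56, 6.24 and 5.81 CPM in control libraries 7 to 10, and 5.41, 3.71, 7.36 and 4.39 CPM in GK libraries 7 to 10. GK 7, GK 8 and GK 10 were under every control, and GK 9 was within the control range. The log2 fold change was -0.27 ± 0.25, from 6.33 ± 0.967 to 5.22 ± 1.59 CPM; it was -0.48 without GK 9 and 0.09 with the adipocyte score as a covariate. No difference was detectable at this spread.

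Sox9 (chromosome 10, 101288489 to 101293379), which specifies chondrocytes, had 6, 0, 13 and 13 counts in control libraries 7 to 10, and 16, 21, 66 and 5 counts in GK libraries 7 to 10. Most of the excess in GK came from GK 9, which had 4.22 CPM against at most 1.44 CPM in any other library. The means were 0.550 ± 0.421 and 1.80 ± 1.67 CPM and the log2 fold change was 1.67 ± 0.87; without GK 9 it was 0.82. With the adipocyte score as a covariate it was 4.04, and Sox9 was then past the test. The lncRNA NONRATT005027.2 (chromosome 10, 101291276 to 101292624), which lies inside the span of Sox9 and which the authors' deposited table pairs with it, had 1, 0, 1 and 3 counts in controls and 6, 12, 26 and 1 in GK. Both were highest in GK 9 and lowest of their group in GK 10, but with no strand stated the reads of the 2 cannot be told apart.

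Msx2 (chromosome 17, 11683862 to 11689527), a homeobox gene induced by bone morphogenetic protein (BMP), had 0, 2, 5 and 3 counts in control libraries 7 to 10, and 11, 40, 7 and 2 counts in GK libraries 7 to 10. GK 8 held 40 of the 60 counts of its group. The means were 0.181 ± 0.138 and 1.04 ± 1.17 CPM, and the gene was under the minimum for the test. The highest library was thus GK 9 for Sox9 and GK 8 for Msx2. In GK 9 the chondrocyte markers also summed to 10.3 CPM, but control 9 had as much. Nerve and Schwann cell markers summed to 1873 CPM in GK 9 and to at most 807 CPM in any other library, and their part in the Sox9 level was not tested.

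Other genes of the calcification pathways were then counted in 8 lists that hold none of the members. Of 150 genes listed, 130 were found and 110 tested. Of these, 5 rose and 10 fell, which is 13.6% of those tested beside 7.28% of all genes, and the median log2 fold change was -0.26 beside 0.00 over all genes. These counts turned on single libraries. The number past the test was 39 when GK 9 was left out, 8 when control 7 or control 9 was, 7 for control 8, 3 for GK 10, 2 for GK 7, and 1 when GK 8 or control 10 was left out. It was 5 with the adipocyte score as a covariate, and 14 of the 15 genes, all but Tyro3, were then not past the test. Nqo1 alone passed in each of the 8 fits that left out a library, and none of the 15 changed direction in any alternative run.

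Among 14 tested genes of pyrophosphate and phosphate handling, none passed the edgeR test, beside 7.28% of all genes. DESeq2 called 4 of the list, and 2419 genes in all. An unadjusted edgeR p under 0.05 was found for 7, but the share of all genes under it is not given here. Nothing is read from that count. Their median log2 fold change was -0.16. The most abundant were the annexins of matrix vesicles, with Anxa6 at 370 ± 26.0 and 467 ± 81.8 CPM and Anxa5 at 312 ± 43.6 and 409 ± 86.5 CPM in controls and GK. Ankh, which raises pyrophosphate outside the cell, missed the test at -0.47 ± 0.13 (edgeR adjusted p = 0.0605); it was chosen here after its values were seen, for its place beside Enpp1.

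Of 11 tested mineralisation inhibitors and hormone genes, 1 rose and 2 fell, with a median of -0.21. Sgk1, a kinase induced by glucocorticoids, rose from 28.6 ± 8.70 to 65.9 ± 16.0 CPM, or 1.21 ± 0.26 on the log2 scale (edgeR adjusted p = 0.0340). Pth1r, the receptor of parathyroid hormone, fell from 10.7 ± 1.14 to 4.75 ± 1.78 CPM, or -1.16 ± 0.26 (edgeR adjusted p = 0.0367), and was at -0.65 ± 0.30 with the adipocyte score as a covariate. Phex, an endopeptidase whose loss causes phosphate wasting and which is known to act on acidic peptides of bone matrix proteins, fell from 4.98 ± 2.48 to 1.10 ± 0.760 CPM, or -2.16 ± 0.54 (edgeR adjusted p = 0.0484). Tnfrsf11b, the osteoprotegerin gene whose loss calcifies arteries in mice, was at 126 ± 45.0 and 132 ± 68.1 CPM and did not pass. Fam20c, the kinase that phosphorylates the acidic proteins of bone matrix, was at 23.7 ± 5.33 and 13.7 ± 6.29 CPM (edgeR adjusted p = 0.163).

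The vitamin K cycle bears on Mgp because its protein needs carboxylation. Of 15 tested genes of the cycle and of Gla proteins and their receptors, 2 rose and 1 fell, with a median of -0.02. Vkorc1, the epoxide reductase that recycles vitamin K and the target of warfarin, fell from 28.5 ± 1.497 to 16.3 ± 1.79 CPM, or -0.80 ± 0.12 (edgeR adjusted p = 0.0135). Nqo1, a quinone reductase that can also reduce vitamin K, rose from 7.69 ± 0.763 to 26.1 ± 8.89 CPM, or 1.76 ± 0.24 (edgeR adjusted p = 0.00946). Tyro3, a receptor of the Gla proteins Gas6 and protein S, rose from 4.20 ± 0.759 to 8.35 ± 1.22 CPM, or 0.99 ± 0.21 (edgeR adjusted p = 0.0300). Gas6 itself was at 245 ± 43.8 and 157 ± 43.5 CPM (edgeR adjusted p = 0.114), and Aifm2, a vitamin K reductase, at 384 ± 143 and 397 ± 160 CPM. In this list the groups did not overlap for 3 genes higher in GK, Nqo1, Tyro3 and Prrg4, and for 1 lower, Vkorc1. Of all genes tested, 7.69% were so higher and 7.79% lower. Prrg4 did not pass the test (edgeR adjusted p = 0.0894).

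BMP signalling drives Msx2 and Runx2, and matrix Gla protein binds BMP. Of 29 tested genes of the pathway, 1 rose and 3 fell, with 21 below 0 and a median of -0.38. The ligand gene Bmp4 fell from 22.7 ± 6.77 to 7.73 ± 3.91 CPM, or -1.55 ± 0.36 (edgeR adjusted p = 0.0414). The receptor gene Bmpr1a fell from 96.5 ± 17.0 to 58.2 ± 7.28 CPM, or -0.73 ± 0.16 (edgeR adjusted p = 0.0367). Fstl1, a secreted BMP antagonist, fell from 493 ± 156 to 182 ± 84.9 CPM, or -1.43 ± 0.36 (edgeR adjusted p = 0.0486). With the adipocyte score as a covariate these log2 fold changes were -0.46 ± 0.24 for Bmp4, -0.36 ± 0.20 for Bmpr1a and -0.44 ± 0.28 for Fstl1, and none of the 3 passed. Fibroblast markers, 3 of 8 of which passed the test and were lower, summed to 3306 to 7032 CPM in controls and 1057 to 3539 CPM in GK; their part in these values was not tested. Eng, the endothelial co-receptor endoglin, rose from 72.2 ± 8.82 to 107 ± 14.8 CPM, or 0.57 ± 0.14 (edgeR adjusted p = 0.0484). Endothelial markers summed to 676 to 1056 CPM in controls and 1089 to 1330 CPM in GK. Of 9 tested, 3 were past the test and higher, whereas 3 were below 0 without passing. Their part in Eng was not tested. The more abundant receptor genes Bmpr2, at 163 ± 14.5 and 178 ± 11.9 CPM, and Acvrl1, at 82.7 ± 16.1 and 78.7 ± 6.78 CPM, did not pass.

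Of 16 tested osteochondrogenic transcription factor genes other than the members, 1 rose and 1 fell, with a median of 0.09. Twist1, which holds back Runx2 in early osteoblasts, fell from 8.34 ± 1.28 to 4.11 ± 0.343 CPM, or -1.02 ± 0.19 (edgeR adjusted p = 0.0212). Nerve and Schwann cell markers summed to 290 to 807 CPM in controls and 454 to 1873 CPM in GK, the highest in GK 9, with 1 of 8 past the test. Atf4 and Foxo1, the most abundant of the list, had log2 fold changes of 0.00 ± 0.16 and 0.19 ± 0.21.

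Osteopontin acts through integrins, and of 10 tested receptors and cleaving enzymes 2 fell and none rose, with a median of -0.52. Itga8, an integrin subunit of smooth muscle, fell from 1438.5 ± 574 to 311 ± 106 CPM, or -2.21 ± 0.39 (edgeR adjusted p = 0.0184). Itga9, which binds cleaved osteopontin, fell from 120 ± 38.8 to 39.4 ± 11.6 CPM, or -1.61 ± 0.29 (edgeR adjusted p = 0.0213). Their shared partner Itgb1 was at 639 ± 178 and 473 ± 28.6 CPM (edgeR adjusted p = 0.250), and Tgm2, which crosslinks osteopontin, at 392 ± 135 and 397 ± 65.5 CPM. Of 14 cartilage and bone matrix genes found, only 5 were tested, and none passed. DESeq2 called 2 of them, and 2419 genes in all. An unadjusted edgeR p under 0.05 was found for 2, without the share of all genes beside it, and nothing is read from that. The most abundant, Cilp, had -1.45 ± 0.51 (edgeR adjusted p = 0.114), and Col11a1 had -2.08 ± 0.59 (edgeR adjusted p = 0.0672). Fibroblast markers summed to 3306 to 7032 CPM in controls and 1057 to 3539 CPM in GK, with 3 of 8 past the test and lower, and their part in these matrix and integrin values was not tested.

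**Figure D5:**
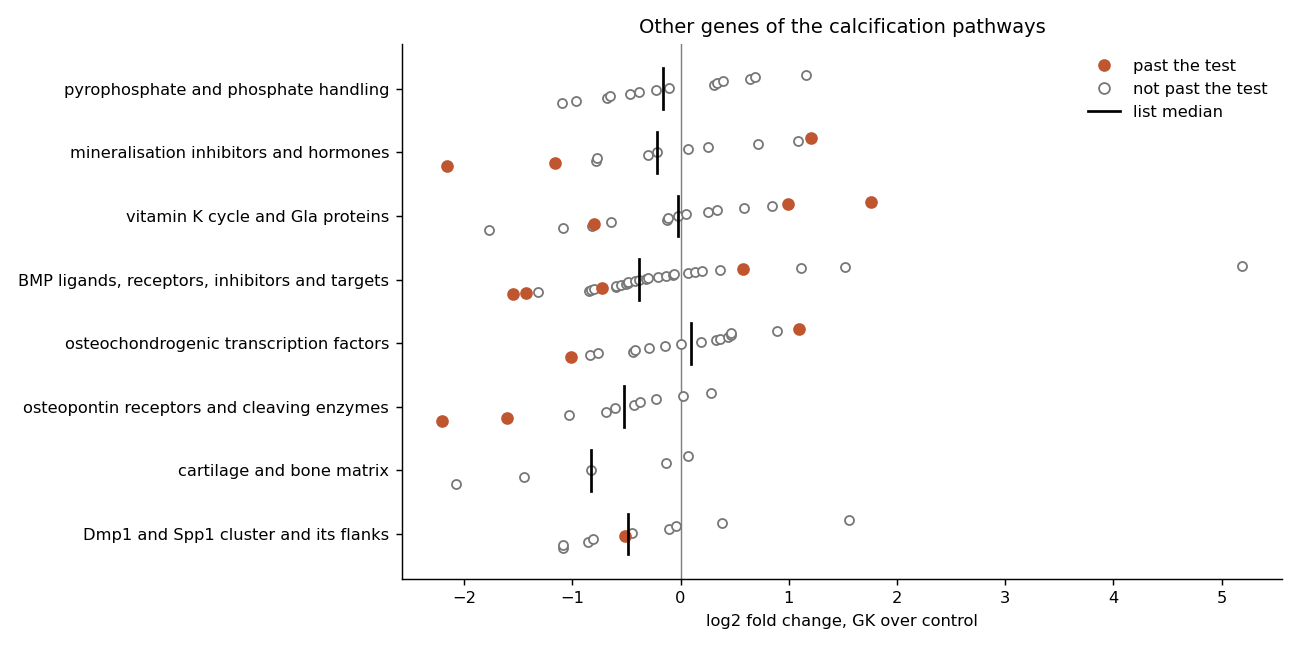
Log2 fold change of GK over control for each tested gene of the 8 pathway lists, 1 row per list, with filled points for genes past the edgeR test and a vertical bar at each list's median. The medians run from -0.83 for cartilage and bone matrix to 0.09 for the transcription factors, and 15 of 110 points are filled; the isolated point at 5.19 is Hfe2.

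Across all 8 libraries, the genes whose log2 CPM followed a member most closely were described by Pearson's r over 12213 genes, a measure that the difference between the groups itself dominates. For Mgp they were Gpx7, a peroxidase of the endoplasmic reticulum, at r = 0.993, C1qtnf7, a secreted C1q-like protein, at 0.988, and Abracl, at 0.987. For Dmp1 they were Fermt2, the integrin activator kindlin-2, at 0.992, RT1-CE10, a class I histocompatibility gene, at 0.979, and MGC116121 at 0.974. Closeness to Mgp or Dmp1, whose own groups do not overlap, largely fixes the direction and separation of such genes. All 6 had every GK library under every control, beside 7.79% of all genes tested. The sizes differed widely: Fermt2 went from 359 ± 16.5 to 232 ± 20.04 CPM, whereas RT1-CE10 went from 18.3 ± 3.22 to 0.793 ± 0.317 CPM, and the counts of such a multigene family are uncertain. Mgp and Dmp1 correlated with each other at r = 0.950, which ranked Dmp1 111th for Mgp and Mgp 44th for Dmp1. With 4 libraries a group these are descriptions, and the libraries share group, scaling and depth.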

How the data were processed

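Thoracic aorta RNA of 4 control and 4 GK rats was analysed by the groups in the titles and labels, since the source name reads GK for every sample. Per the file headers, the authors deposited whole-number counts of reads for genes and for lncRNA transcripts, and FPKM beside them. The log2 fold changes, q-values and calls printed as the authors' are from the authors' deposited tables. Bowtie 0.12.2 is a tool named in the submitters' processing notes, whose builds are of the mouse, without a role. Coordinates are as in the files, since no source used here names the rat build. Counting by strand is not stated either.

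Counts were fitted in R 4.3.3 with edgeR 4.0.16 (filterByExpr, TMM, glmQLFit, glmQLFTest, group as the only term), each table whole, at a Benjamini-Hochberg adjusted p under 0.05 and with no fold minimum. CPM are counts over library total times TMM factor. Standard errors are the fold change on the log2 scale divided by the root of F. The lncRNA table held 1185872 to 2031376 counts per library. Correlations used log2 CPM with a prior count of 2, over tested genes with a mean log2 CPM of at least 1. The script was tested on simulated data. Alternatives were DESeq2 1.42.0, other scalings, no filter, a replicate block, left-out libraries and an adipocyte marker score as covariate.

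The members, lists and alternatives were chosen with earlier results of these data known. Named genes were the members, the lncRNA transcripts within 30 kb of Dmp1, of each list up to 4 genes past the test with the lowest adjusted p and the 2 most abundant not past it, and the 3 genes most correlated with Mgp and with Dmp1. The values of 1 gene that this rule selects are not reported here. Lists of markers were contractile smooth muscle, fibroblast, endothelial, macrophage, brown adipocyte, general adipocyte, osteoblast and osteocyte, chondrocyte, and nerve and Schwann cell.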

Additional observations from a re-analysis of the deposited data

Results flagged for a closer look

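Among groups of 4 libraries, 7 of 106 examined had a highest or lowest library set apart from the others by Dixon's test at the 95% level, which chance gives in about 1 of 20 groups. Dmp1 was at 13.8 CPM in GK 10, with the next GK library at 7.83 CPM. The ratio of Alpl to Enpp1 was 1.10 in control 8, with the next control at 0.482. Spp1 per summed macrophage marker was 0.540 in GK 10, with the next GK library at 0.211. Pth1r was at 7.42 CPM in GK 9 against 4.02 CPM in the next, and Col11a1 at 15.2 CPM against 4.46 CPM. The summed chondrocyte markers of GK 9 were at 10.3 CPM against 2.88 CPM in the next GK library. The summed nerve and Schwann cell markers of control 9 were at 807 CPM against 360 CPM in the next control.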

How the results depend on the processing

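The counts of calls depended on the fit. The 995 genes past the test became 2419 with DESeq2, 798 with the adipocyte covariate and 2532 without both libraries numbered 9. They became 468 with library totals only, 654 with no filter, and 135 (without control 10) to 3047 (without GK 9) with 1 library left out. The 320 lncRNA transcripts became 925 with DESeq2, 57 with the adipocyte covariate, 503 without both libraries numbered 9, 158 with no filter, and 108 to 581 with 1 library left out. The 15 pathway genes became 29 with DESeq2, 5 with the covariate, 33 without both libraries numbered 9, 5 with library totals only, and 1 to 39 with 1 library left out. The cause of these shifts was not tested. Of the members, 2 were past the test in every alternative but the covariate, where it was 3 with Sox9. These fits reuse the libraries whose comparison chose the set, so no support is taken from that number. Library totals in place of TMM moved the median of all genes to -0.15. Over the alternatives, log2 fold changes ran from -2.70 to -2.17 for Mgp, -3.14 to -2.70 for Dmp1, -2.92 to -2.69 for MSTRG.12320.1, -2.84 to -2.39 for MSTRG.12319.8, -0.71 to -0.05 for Spp1, 0.23 to 1.48 for Alpl, -0.80 to 0.24 for Enpp1, -0.50 to 0.09 for Runx2 and 0.82 to 4.04 for Sox9.

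The main fit did not pair libraries by replicate number, and whether the number stands for a shared effect is not settled here. In the gene table, deviations of same-numbered libraries correlated at 0.0248 to 0.545, with 0.417 for number 7 and 0.545 for number 9. Libraries of unlike number ran from -0.393 (control 9 with GK 7) to 0.409 (control 8 with GK 10). With the replicate block, 2372 genes, 36 pathway genes and 250 lncRNA transcripts passed the test. The members past it were again 2, from which no support is taken either. Depth limits Msx2, Sox9, Bglap and Sost, at under 1 CPM in most libraries.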

Other observations

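A pair of list genes that the naming rule did not reach was chosen after their values were seen. Hfe2, the BMP co-receptor haemojuvelin of muscle and liver, had 1.69, 0.0926, 0.0671 and 0 CPM in controls 7 to 10 and 1.90, 6.87, 59.7 and 0 CPM in GK 7 to 10, so that GK 9 alone held most of its reads. Its edgeR adjusted p was 0.117. Lect1, the chondromodulin gene of cartilage, had 0, 0, 0.0671 and 0 CPM in controls 7 to 10 and 0, 0.893, 2.37 and 0 CPM in GK 7 to 10. GK 9 was the highest library for both, as for Sox9.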
